A study of Homo sapiens with 2 samples.

Results

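Metallothioneins are small cysteine-rich proteins that hold zinc and copper ions in clusters through the sulfur of their cysteines. They buffer the free zinc of the cell and bind toxic metals such as cadmium. Their genes lie side by side on chromosome 16 and are switched on by the zinc sensor MTF1, which binds short metal response elements in their promoters, and glucocorticoids and oxidative stress also raise them.

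All probes whose deposited gene symbol was MT1A, MT1B, MT1E, MT1F, MT1G, MT1H, MT1L, MT1M, MT1X or MT2A were taken. These were 13 probes of 10 genes, of 58199 probes and 34757 gene symbols on the array. The values that follow come from A375 cells, an established human melanoma line. The NC culture received a control siRNA and the si-THOC2 culture an siRNA against THOC2, a subunit of the THO complex that couples transcription to mRNA export. Both were harvested at 48 h, and RNA of each was hybridized to 1 Agilent 1-colour array with probes of 60 bases. There were no replicates, which leaves the variation among cultures unmeasured and allowed no test of the treatment. For both samples, the title and description give a condition opposite to that in the source field. The former were followed, and the 2 THOC2 probes read lower on the array taken as si-THOC2 (signals 67.3 and 136 with NC, 35.1 and 40.9 with si-THOC2).

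Each value began as the scanner software's processed signal, an intensity after subtraction of the background. A log2 fold change is the difference in log2 signal, si-THOC2 minus NC, after each array was reduced by its own 75th percentile. That percentile was 6.62 for NC and 6.31 for si-THOC2, so the scaling adds 0.31 to every log2 ratio of signals. Among 22207 probes well above background on both arrays, the median log2 fold change was 0.04 and the SD was 0.32. A call needed a 2-fold difference. Repeated spots gave a technical SD of the log2 fold change of 0.05 for log2 signals over 8, which covers spot error within the arrays only. Signals of different probes depend on their sequence. Where signals of different genes are summed or shown side by side, they are not read as the level of one gene against another.

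The probes with an open reading frame rich in cysteine are shown first, since they display what the family shares. Sequences are those of the array design, placed on hg19, written 5′ to 3′ with each in-frame cysteine codon (TGC or TGT) in capitals.
MT1A: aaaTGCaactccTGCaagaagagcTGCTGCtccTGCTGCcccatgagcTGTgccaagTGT
MT1B probe 1: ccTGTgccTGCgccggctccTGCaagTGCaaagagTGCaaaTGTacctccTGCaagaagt
MT1HL1: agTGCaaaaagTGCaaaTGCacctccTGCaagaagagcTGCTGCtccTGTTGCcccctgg
MT4: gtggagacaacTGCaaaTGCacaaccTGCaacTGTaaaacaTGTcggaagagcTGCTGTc
The MT1A probe holds 8 cysteine codons among 20 codons. It spans 604 bases of the genome (chr16:56673205-56673808), more than its length, and so crosses a splice junction. The first MT1B probe (chr16:56686489-56686548) holds 7 among 19. MT1HL1, a family gene on chromosome 1 (chr1:237167555-237167614, minus strand), has 8 among 19, and MT4 has 7 among 19. The MT1A and MT1HL1 probes are identical at 42 of 46 bases when laid over each other, with a shared run of 27 bases.

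Such likeness limits what a probe can say about a single gene. Among the measured member probes, the longest run shared with a probe of another family gene was 27 bases for MT1A, 19 for the second MT1E probe and MT1L, 17 for the second MT1B probe, and 15 for the first MT1B probe and MT1X. Likeness over a longer overlap was high for some pairs. The first MT1B probe matched MT1HL1 at 33 of 36 bases, and the second MT1E probe matched MT1L at 38 of 42. The second MT1B probe matched MT1L at 38 of 43 bases and the second MT1E probe at 49 of 59. The values of such probes may not be independent of each other. The MT2A probe shared at most 10 bases with a probe of any relative, and the MT3 probe at most 8. These runs were sought between probes only. What a probe shares with the rest of a relative's transcript was not searched, so a short run does not show that a probe reads 1 gene. No probe outside the family shared 20 or more bases with a family probe. How far each probe also bound RNA of its relatives was not tested.

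Of the 10 genes, 6 were measured on both arrays by 7 probes, and all 7 probes were higher with si-THOC2, by log2 fold changes of 0.40 to 1.08 with a median of 0.53. MT1E alone passed 2-fold. No member probe was lower by 2-fold. By gene, all 6 were above 0, as were 8883 of the 15647 gene symbols measured on both arrays. Of all probes on both arrays, 0.829% were higher and 0.365% lower by 2-fold or more. When a probe needed to be well above background on only 1 of the arrays (25345 probes), these shares were 2.93% and 3.33%. The processed signals themselves, before scaling, were also higher with si-THOC2 for all 7 probes. Their ratios ran from 1.06 to 1.26 apart from MT1E at 1.71, so the larger part of most fold changes came from the scaling step.

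**Figure D1:**
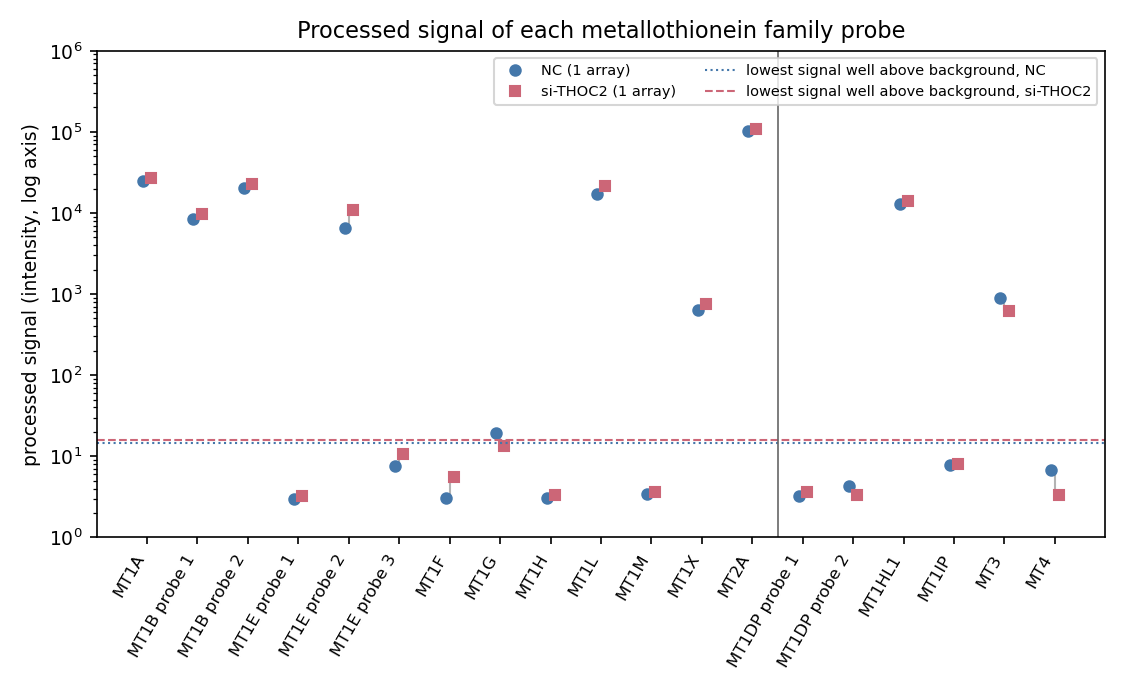
Processed signal (intensity, log axis) of each metallothionein family probe on the NC array (circles) and the si-THOC2 array (squares), 1 array each, with the 10 member genes left of the vertical line and other family genes right of it. The horizontal lines mark the lowest signal well above background, 14.7 with NC and 15.9 with si-THOC2; 7 member probes lay far above both lines, and the others lay near or under them.

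MT2A encodes the metallothionein that most human cell types use. Its probe (chr16:56643332-56643391) read 102311 with NC and 108903 with si-THOC2. The log2 fold change was 0.40, a fold of 1.32, the smallest of the measured members. The 2 signals were close, with a ratio of 1.06.

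MT1A and MT1B are MT1 genes that code for metal-binding proteins of the same build. The MT1A probe read 24905.7 with NC and 26683.7 with si-THOC2. Its log2 fold change was 0.41, a fold of 1.33. MT1B had a pair of probes. The first went from 8401.61 to 9807.78, at 0.53 on the log2 scale. The second (chr16:56686948-56687007) went from 20057.9 to 23072.6, at 0.51. The MT1B probes thus gave nearly the same value, with a difference below the technical SD of 0.05. They share no run longer than 9 bases with each other, but each closely resembles probes of other family genes, as given above. Whether both read MT1B alone was not tested.

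MT1X is an MT1 gene at the far end of the cluster. Its probe (chr16:56717962-56718021) read 636.473 with NC and 747.807 with si-THOC2, at 0.54. MT1L is annotated with a noncoding transcript in the array design. Its probe (chr16:56652580-56652639) went from 16930.8 to 21258.9, which gave 0.64, the second largest value of the family.

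MT1E is a further metal-binding MT1 gene, with 3 probes of which only the second was measured. That probe (chr16:56660853-56660912) read 6438.98 with NC and 10990.1 with si-THOC2. Its log2 fold change was 1.08, a fold of 2.12. It stood 0.44 above the next member, MT1L. Without MT1E, the median of the remaining 6 probes was 0.52 and their highest value was 0.64. The first MT1E probe (chr16:56660614-56660673) read 3.003 and 3.21, and the last (chr16:56660883-56660942) read 7.54 and 10.8, all below background.

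The second and the last MT1E probe overlap by 30 bases at chr16:56660883-56660912, and this stretch is shown because the probes behaved so differently. Capitals mark the only base at which they differ, A29T, counted from the 5′ end of the stretch with the second probe's base first.
MT1E probe 2: atgtgggaacagctcttctcccagatgtAa
MT1E probe 3: atgtgggaacagctcttctcccagatgtTa
The second probe carries 30 further bases upstream of this stretch, and the 30 further bases of the other probe lie downstream. The 2-fold call of MT1E therefore rests on 1 probe, and no other MT1E probe gave a value to set beside it.

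The MT1E spot lay in a part of the array with many higher calls, at row 145 and column 23. The array was divided into 128 blocks (16 down and 8 across). In the MT1E block, 35 of 205 other compared probes (17.1%) were higher by 2-fold or more and 2 were lower. The share of higher calls ran from 0 to 19.9% over blocks with a median of 1.60%, and the MT1E block ranked 2 among the 128. Of 175 other block probes on both arrays, 14 (8.00%) were higher by 2-fold, and their median log2 fold change was 0.17. With MT1E counted in, the block's median was the highest of all blocks. The 37 measured probes within 6 rows and 4 columns of the MT1E spot had a median of 0.30 and ran from -0.38 to 1.45, with 4 of them at or above MT1E. MT1E lay 0.91 above its block median and 0.79 above the median of its near spots. After this subtraction it was still above the other members but no longer past 2-fold. The part of the array position in the MT1E value was not tested.

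**Figure D2:**
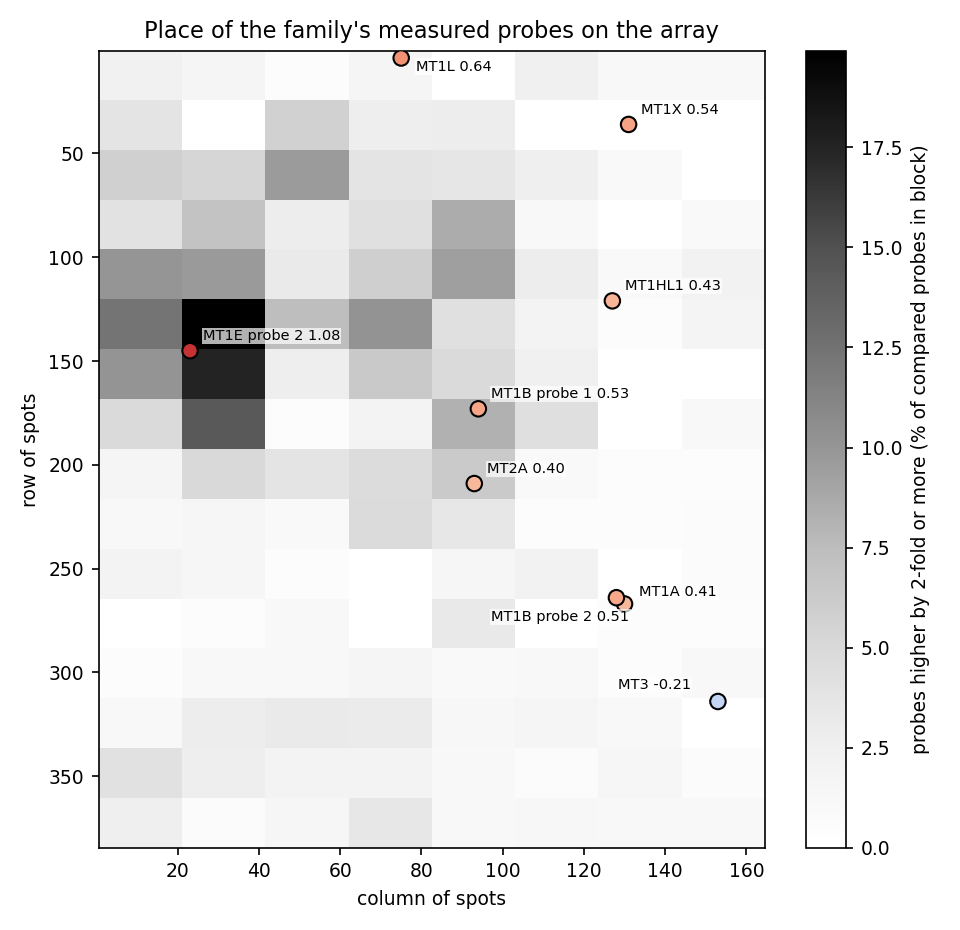
Place of the measured family probes on the array, by row and column of spots, with the log2 fold change beside each point. Grey shading gives the percentage of compared probes in each of 128 blocks that were at least 2-fold higher with si-THOC2. With the members counted in, MT1E lay in a block with 17.5% and MT1X in a block with 0.

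The other measured members lay elsewhere. In their blocks, the share of other probes higher by 2-fold was 0 for MT1X and the second MT1B probe, 0.459% for MT1A, 1.61% for MT1L, 6.31% for MT2A and 8.25% for the first MT1B probe. Less the median of their near spots, MT2A was at 0.41, MT1A at 0.42, the second MT1B probe at 0.46, the first at 0.50, MT1X at 0.54 and MT1L at 0.55. These 6 values were thus close to those before subtraction, and all were above 0.

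**Figure D3:**
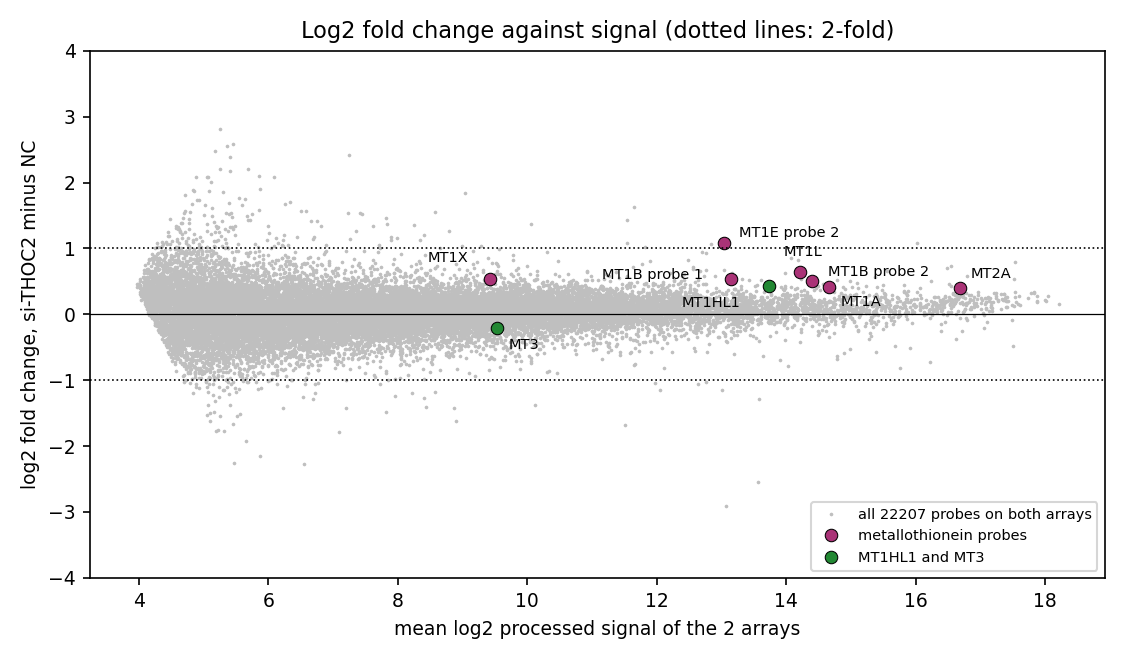
Log2 fold change (si-THOC2 minus NC) against the mean log2 processed signal for all 22207 probes well above background on both arrays (grey), the 7 metallothionein probes (purple) and the MT1HL1 and MT3 probes (green). The 7 metallothionein probes lay between 0.40 and 1.08, and only MT1E was above the dotted line at 2-fold.

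Fold changes scatter less at high signal, so the members were also read beside bright probes. All 7 lay among the 7033 probes whose log2 signals were over 9 on each array, which had a median of 0.08 and an SD of 0.21. Only 8 of these bright probes (0.114%) were higher by 2-fold and 10 were lower. Of the 7033, 4.17% were at or above the lowest metallothionein probe, the members included. Of the 7, 6 had a log2 signal over 12, where the median of all 2051 probes was 0.10 and the SD was 0.20.

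The other members gave no fold change. MT1G was well above background with NC only, with a signal of 19.3 against 13.3 with si-THOC2. After scaling, the NC signal was no higher than the lowest signal well above background on the si-THOC2 array, so no fold can be given. MT1F read 3.10 and 5.55, MT1H 3.03 and 3.29, and MT1M 3.40 and 3.68 with NC and si-THOC2, all below background on both arrays. With both dim MT1E probes, 5 of the 13 probes were in this state. No direction can be drawn for these genes, and a low signal does not show that a gene was silent.

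The 3′ ends of the MT1X, MT1F and MT1H probes are shown because they resemble each other while MT1X alone gave a signal. Each line is the last 30 bases of the probe (hg19), and capitals mark bases that differ from MT1X.
MT1X, chr16:56717992-56718021: tagagcaacctatataaacctggatttttt
MT1F, chr16:56693107-56693136: CagagAGacAtGtaCaaacctggatttttt
MT1H, chr16:56704932-56704961: CagaATGacACGtaAaaTccAggatttttt
MT1F differs from MT1X at 6 of these 30 bases and MT1H at 10. Over the whole probe, MT1F and MT1X are identical at 49 of 60 bases. MT1F was below background on arrays where MT1X was not.

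Of 7 further family genes sought, 5 had a probe. MT1HL1 read 13053 with NC and 14188.7 with si-THOC2. Its log2 fold change of 0.43 lay within the range of the members. As described above, its probe closely resembles that of MT1A, which was at 0.41, so these values may not be independent. MT3, a metallothionein known from the brain, read 883 and 615, a log2 fold change of -0.21. It was the only measured family gene with a lower signal and a value below 0 with si-THOC2, and its block held no probe that was higher by 2-fold. MT4, known from stratified epithelium, read 6.71 and 3.36, below background on both arrays. The MT1DP and MT1IP probes were below background too, and no probe carried the symbols MT1JP or MT1CP.

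The promoters of 4 members (MT1B, MT1H, MT1X and MT2A) were in the RefSeq table used here (GRCh38.p14). They are shown because MTF1 acts through this stretch. Each line is the 250 bases before the transcript start on the plus strand, with matches to the core of the metal response element in capitals. It was searched as TGCACNC and TGCGCNC on both strands, so that a match on the minus strand reads reversed and complemented, and no matches overlapped.
MT2A, chr16:56608334-56608583: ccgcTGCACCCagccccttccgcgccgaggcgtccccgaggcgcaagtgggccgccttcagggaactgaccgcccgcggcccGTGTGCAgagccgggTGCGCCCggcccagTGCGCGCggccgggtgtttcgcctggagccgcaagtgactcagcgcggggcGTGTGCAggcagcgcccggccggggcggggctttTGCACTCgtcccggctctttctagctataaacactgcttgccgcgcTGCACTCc
MT1X, chr16:56682220-56682469: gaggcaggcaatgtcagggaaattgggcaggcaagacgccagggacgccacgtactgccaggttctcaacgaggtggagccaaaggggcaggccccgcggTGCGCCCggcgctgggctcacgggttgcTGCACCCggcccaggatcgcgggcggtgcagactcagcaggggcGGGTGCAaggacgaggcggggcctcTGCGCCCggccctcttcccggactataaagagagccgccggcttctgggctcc
MT1B, chr16:56651636-56651885: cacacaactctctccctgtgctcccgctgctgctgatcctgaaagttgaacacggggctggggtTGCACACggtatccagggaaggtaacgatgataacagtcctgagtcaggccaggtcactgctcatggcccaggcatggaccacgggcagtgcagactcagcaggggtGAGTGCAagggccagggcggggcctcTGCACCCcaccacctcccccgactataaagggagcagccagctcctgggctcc
MT1H, chr16:56669564-56669813: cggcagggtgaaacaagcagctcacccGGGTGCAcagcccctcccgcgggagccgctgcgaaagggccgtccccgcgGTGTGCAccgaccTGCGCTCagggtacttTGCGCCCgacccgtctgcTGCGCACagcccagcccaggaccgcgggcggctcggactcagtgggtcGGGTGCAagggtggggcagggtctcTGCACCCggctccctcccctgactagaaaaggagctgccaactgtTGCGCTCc
MT2A held 7 matches, MT1X held 4, MT1B held 3 and MT1H held 8. Of 35116 promoters of the same length, 24.8% held at least 1 match. As many as in MT1B were found in 1.58% of them, as many as in MT1X in 0.370%, as many as in MT2A in 0.0313% and as many as in MT1H in 0.0171%. MT1H, with the most matches of the 4, gave no signal above background, while MT2A, MT1X and MT1B had log2 fold changes of 0.40, 0.54 and 0.52. A match is a stretch of letters, and MTF1 binding was not measured.

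Genes that act with metallothioneins in metal handling had medians near that of all genes. The regulator MTF1 itself read 277 and 262, a log2 fold change of 0.23 that is above 0 only through the scaling. Of zinc exporters, which move zinc out of the cytosol, 7 of 10 were measured on both arrays, and 3 were above 0, with a median of -0.08. Their highest value was that of SLC30A1, the exporter of the plasma membrane and itself a target of MTF1, at 0.39 (380 and 401), and their lowest that of SLC30A4 at -0.27 (44.3 and 29.6). Of zinc importers, 11 of 14 were measured, 7 were above 0 and the median was 0.08. SLC39A7, which releases zinc from the endoplasmic reticulum, was highest at 0.62 (944 and 1169), and SLC39A11 lowest at -0.15 (1658 and 1208). All 10 copper handling genes were measured, 4 were above 0 and the median was -0.03, from ATP7A, a copper exporter, at -0.34 to SCO2, a copper chaperone of mitochondria, at 0.22. No gene of these lists passed 2-fold.

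Genes outside the family that metals or oxidative stress induce gave a median of 0.03, with 6 of 10 above 0. HMOX1, the heme oxygenase that cadmium strongly induces, was highest at 0.54 (2149 and 2514). SLC7A11, the cystine importer, was lowest at -0.13 (1559 and 1147). SLC30A1 is in this list as well as among the exporters. Of genes that glucocorticoids induce, 8 of 10 were measured and 4 were above 0, with a median of 0.02. ANGPTL4, an inhibitor of lipoprotein lipase, was highest at 0.45 (3759 and 4150) and KLF9, a transcription factor, lowest at -0.30 (1613 and 1060). HMOX1 and ANGPTL4 thus lay within the range of the metallothioneins, while the medians of their lists lay near that of all genes.

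Neighbours of the cluster on chromosome 16 had a median near that of all genes. Of 9 neighbouring genes, 7 were measured on both arrays, 4 were above 0 and the median was 0.02. NUP93, a nuclear pore subunit, was highest at 0.29 (810 and 797) and HERPUD1, a gene of the endoplasmic reticulum stress response, lowest at -0.07 (27672.8 and 21293.3). No neighbour reached the lowest metallothionein value of 0.40.

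Across these 7 lists, 53 genes were measured on both arrays, 28 were above 0, the median was 0.02 and none passed 2-fold. Of the 53, 3 were at or above the lowest metallothionein (MT2A, 0.40), namely SLC39A7, HMOX1 and ANGPTL4. SLC39A6 and SLC30A1, both at 0.39, lay just under it, by less than the technical SD. By gene, the 6 measured metallothioneins were all above 0, with a median of 0.53. All 15647 gene symbols measured on both arrays had a median of 0.04, with 8883 above 0 and 6764 below. Of these symbols, 0.837% were higher and 0.352% lower by 2-fold or more.

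**Figure D4:**
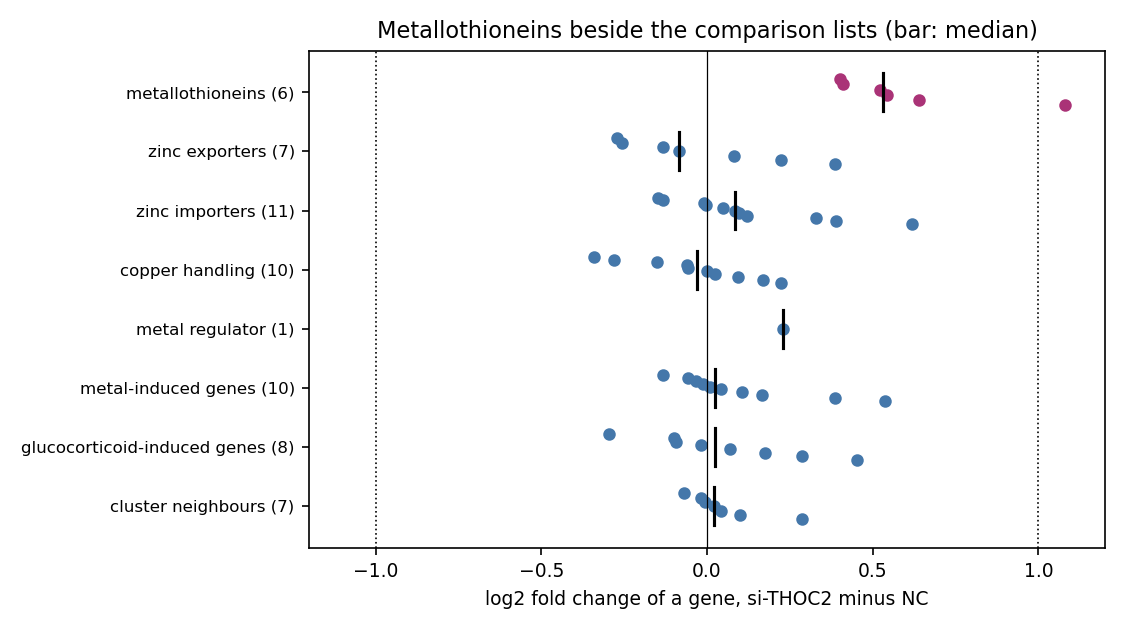
Log2 fold change (si-THOC2 minus NC) of each gene measured on both arrays, by list, with the number of genes in brackets, a vertical bar at each median and dotted lines at 2-fold. The 6 metallothioneins had a median of 0.53, and the medians of the lists with more than 1 gene ran from -0.08 to 0.08.

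The direction of the 6 members measured on both arrays held under each of the alternatives tried. MT1A, MT1L, MT1X and MT2A have a single probe each. Their values could not change with the filters on dim probes, dim signals at their limit or the brightest probe. MT1A ran from 0.28 to 0.41, MT1B from 0.39 to 0.52, MT1L from 0.48 to 0.64, MT1X from 0.39 to 0.54 and MT2A from 0.23 to 0.40 over 11 alternatives, so each stayed above 0 and under 2-fold. MT1E ran from 0.77 to 1.08 and was past 2-fold in 6 of 11. Among those 6, the need for both arrays above background, dim signals at their limit and the brightest probe could not move its value. The reason is that only 1 MT1E probe was measured. Quantile normalization and the deposited normalized values each put MT1E at 0.99, lowess centring just under 2-fold, and centring by block at 0.91. MT1HL1 ran from 0.29 to 0.43, and MT3 from -0.31 to -0.20, below 0 in each. The lowest MT1E value, 0.77, is the mean of all 3 MT1E probes, the dim ones included.

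**Figure D5:**
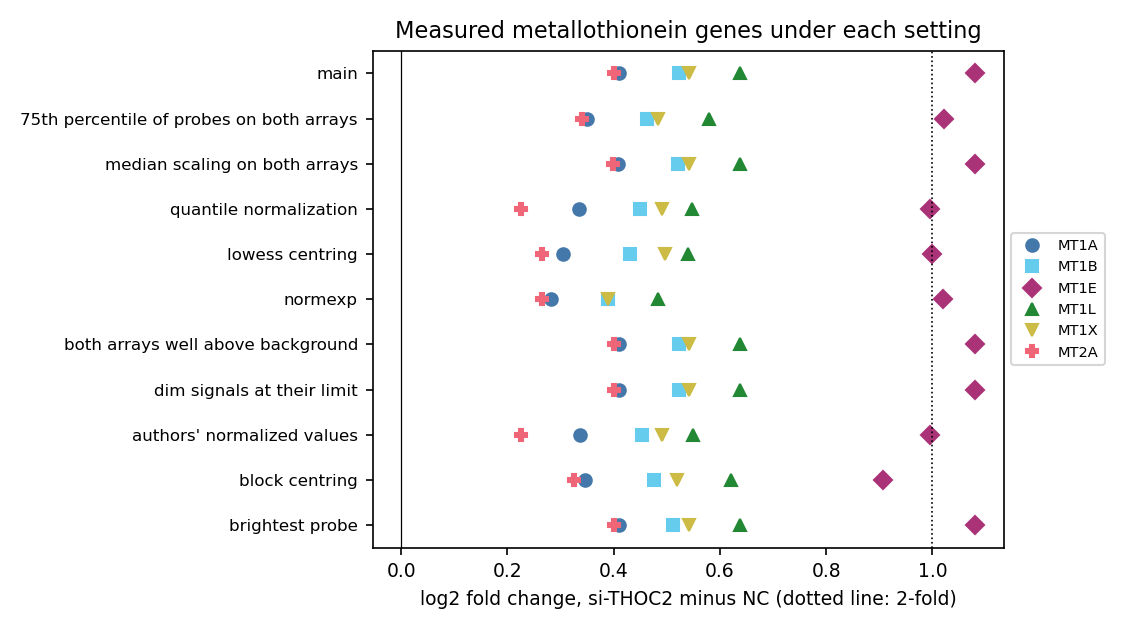
Log2 fold change (si-THOC2 minus NC) of the 6 metallothionein genes measured on both arrays under the main processing (top row) and 10 alternatives, with a dotted line at 2-fold. All points lie above 0, and MT1E is the only gene that reaches the dotted line.

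Cell type markers were read as a check of the line. SOX10, a transcription factor of the melanocyte lineage, read 6196 with NC and 5196 with si-THOC2. Its log2 fold change was 0.06. MITF, by 2 probes on both arrays, was at -0.03. S100B was lowest at -0.66 (199 and 102) and DCT, a pigment enzyme, highest at 0.75 (18.0 and 24.4). A further probe each of MITF and S100B was below background on both arrays. The pigment genes PMEL, TYR and TYRP1 were below background on both. The summed signal of the 8 lineage genes, before scaling as are all sums given here, was 6842 with NC and 5681 with si-THOC2. Of markers of other cells, 1 of 4 fibroblast genes was measured on both arrays, DCN by 1 probe (62.4 and 149) with a log2 fold change of 1.56. The other DCN probe was below background on both arrays (3.17 and 3.41), as were COL1A1, COL1A2 and LUM. Fibroblast genes had summed signals of 78.7 and 162. Of leukocyte genes, CD3E was at 0.87 (25.3 and 37.4), PTPRC at 0.39 (27.4 and 28.9) and CD14 at 0.37 (24.0 and 25.0). The other PTPRC probes were below background on both arrays. Endothelial genes summed to 86.7 and 68.5. PECAM1 was at 0.43 by 1 dim probe (16.2 and 17.6), and its other probes were below background. CDH5 (17.0 and 5.40) and probes of VWF (18.2 and 9.63, 22.1 and 15.6) were well above background with NC only. Keratinocyte genes summed to 32407 and 20761, nearly all from KRT10 at -0.34, while KRT14 was at 0.62 (83.9 and 104) and KRT1 and KRT5 were below background. The part of other cells in the metallothionein values was not tested.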

How the data were processed

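RNA of A375 cells treated with NC or si-THOC2 was measured on 1 array per condition. The authors deposited scanner output of Agilent Feature Extraction 10.7.1.1 (submitters' processing notes), with intensity values per spot that are background subtracted and detrended within the array (processed signal). The deposited marks for place, controls, outliers and signals well above background accompany each spot and are of another kind than intensities. The authors also deposited normalized log2 values, whose distributions are equal on both arrays (the methods name Feature Extraction for normalization and GeneSpring for the basic analysis), and a table of their own fold changes, which was not used. Probe names, genes and hg19 positions are those of the deposited annotation.

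Control spots and flagged spots (147 and 168 non-control spots) were left out, and no spot was saturated. Repeated spots were combined as the mean of their log2 signals. Each array was reduced by its 75th percentile over 58199 probes. Of these, 24616 (42.3%) were well above background with NC and 22936 (39.4%) with si-THOC2. For a gene, the compared probes were averaged. The methods' threshold of 2-fold was kept, and their Student's test was not run because each condition has 1 array, a number that limits the precision. Technical SDs came from repeated spots (244 probes with a log2 signal over 8). The alternatives were other scalings, quantile normalization, lowess (span 0.3), normexp (offset 50), other filters on dim probes, dim signals at their limit, the deposited log2 values, centring by block, the brightest probe and a fold of 3.

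The genes named are all members, their relatives, THOC2, MTF1, and the highest and lowest gene of each of the 7 comparison lists measured on both arrays. Cell type markers, genes of these lists with a bound, and SLC39A6 are named beside these. The members and lists were chosen with earlier results of these data known. The calls were also run on simulated data with large set changes and less scatter than these arrays. That run checks the calculation and does not measure the error of the calls. Calculations were run in R 4.3.3 (limma 3.58.1) and in Python 3.11.15 (numpy 2.4.6, statsmodels 0.14.6, pandas 2.3.3). Exons and UTRs, and M14 cells, were not analysed here.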

Additional observations from a re-analysis of the deposited data

How the results depend on the processing

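Over the 6 genes measured on both arrays and the dim MT1G taken at its measured signals, the median metallothionein log2 fold change was 0.52. It was 0.46 with scaling on the 75th percentile of probes on both arrays, 0.45 with quantile normalization and with the deposited log2 values, 0.43 with lowess centring and 0.39 with normexp. The other alternatives moved it by less than the technical SD. The count of member probes higher by 2-fold was 1. It became 0 with quantile normalization, lowess centring, the deposited values, centring by block and a fold of 3, and 2 with no filter on dim probes. No member was lower by 2-fold under any of these. The dim MT1G probe ran from -0.28 to 0.09. Over all probes, 743 were higher and 844 lower. These counts became 79 and 33 with normexp, 184 and 81 with both arrays above background, 3127 and 1929 with no filter, 476 and 225 with dim signals at their limit, and 447 and 502 at a fold of 3. The mean of the THOC2 probes was -1.03, and -0.51 with normexp. In the 7 comparison lists of metal handling, induced and neighbouring genes, no gene was past 2-fold except 1 higher with no filter. The cause of these differences was not tested. No paired analysis was possible because each condition has a single array. The lowest signal well above background, 14.7 with NC and 15.9 with si-THOC2, limits what can be said of MT1F, MT1G, MT1H and MT1M.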

Other observations

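Some genes of the comparison lists had a probe well above background on the NC array only, which gives a bound. At such dim signals the technical SD of the log2 fold change was larger. It was 0.17 for log2 signals of 4 to 6 (5 probes) and 0.42 for those up to 4 (15 probes). The bounds make no allowance for this error. SLC39A5, a zinc importer, was at least 1.34-fold lower with si-THOC2 (26.3 with NC). A probe of ATP7A was at least 1.79-fold lower (35.3 with NC), below the copper exporter's 3 probes measured on both arrays. ZBTB16, a gene induced by glucocorticoids, was at least 1.45-fold lower (28.6 with NC). A probe of GNAO1, beside the metallothionein cluster, was at least 1.71-fold lower (33.5 with NC). The 2 GNAO1 probes measured on both arrays were at log2 fold changes of 0.14 and -0.10. Of the markers, a probe of MLANA, a melanocyte antigen, was at least 1.58-fold higher with si-THOC2 (18.7) and its other probe was below background on both arrays. A probe of KRT14, a keratin of basal keratinocytes, was at least 2.28-fold higher (26.9 with si-THOC2). A probe of VWF, a clotting protein of endothelium, was at least 1.12-fold lower (22.1 with NC).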
